A study of Mus musculus with 55 samples.

Results

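The Nlrp4, Nlrp9 and Nlrp14 genes are a group of NOD-like receptor genes that mouse oocytes transcribe at high levels. The 9 genes Nlrp4a, Nlrp4b, Nlrp4c, Nlrp4e, Nlrp4f, Nlrp9a, Nlrp9b, Nlrp9c and Nlrp14 were taken by symbol from a count table of 33924 genes, and all 9 were found again by identical exon coordinates in a second table of 37310 features. Every one of them passed the filter on low counts in each comparison. RNA was sequenced from mouse oocytes in 4 experiments that all concern DHX36 (also called RHAU), a helicase that unwinds RNA G-quadruplexes. The first set growing oocytes of Dhx36 sko mice (labelled Dhx36fl/fl;SKO, an abbreviation the labels do not expand; 3 libraries) against growing control oocytes (3 libraries). The second crossed the sko genotype with DRB, an inhibitor of the elongation kinase CDK9, in the groups rhau_sko_DRB (2 libraries), rhau_sko (1 library), c_DRB (1 library) and c (2 libraries); 2 further libraries under 200000 counts were left out. The third set GV oocytes kept for 12 h with cPDS (carboxypyridostatin, a ligand of RNA G-quadruplexes, 3 libraries) against GV_C oocytes (3 libraries). The titles give no time for GV_C oocytes, so the ligand and the 12 h in culture cannot be told apart. The fourth set oocytes 3 h into Trim21-directed degradation, which the titles tie to Dhx36 (3 libraries) against 3 h controls (3 libraries). The labels give neither the driver of the deletion, nor strain or age, nor the genotype of the GV and Trim oocytes, nor a separate stage for the DRB and Trim oocytes, nor the number of cells or animals in a library, so p-values measure the spread between libraries, which may be technical.

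NLRP proteins carry a nucleotide-binding NACHT domain and leucine-rich repeats, in most cases behind an N-terminal pyrin domain. Some family members build inflammasomes, which activate caspase-1, but a large branch of the mouse family is expressed mainly in oocytes and is stored for the early embryo. In mouse oocytes NLRP14 has been reported to act with UHRF1 and with a mitochondrial calcium exchanger, NLRP4F with the subcortical maternal complex and the cytoplasmic lattices, and NLRP4E in preimplantation development. NLRP9B is known from mouse intestine, where it senses rotavirus RNA.

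The 24 libraries used held 7452742 to 65444652 counts. Dhx36 itself was lower in growing sko oocytes (1.73 to 2.83 normalised CPM) than in growing control oocytes (7.34 to 10.9), lower in the sko libraries of the DRB experiment (4.45 to 7.66) than in the c libraries (38.0 to 47.2), and lower in Trim21 oocytes (6.23 to 8.76) than in Trim controls (29.6 to 32.0). In cPDS oocytes Dhx36 was higher than in GV_C oocytes, by 0.73 ± 0.10 (SE) on the log2 scale (edgeR, adjusted p = 1.82e-05). Trim21 RNA stood at 7612 to 9301 normalised CPM in Trim21 oocytes and 14.6 to 14.7 in Trim controls. Markers of the oocyte (Zp1, Zp2, Zp3 and 6 more) were present in all libraries, at summed levels of 28141 to 32142 CPM in growing sko and 28452 to 30011 CPM in growing control oocytes. Markers of granulosa and cumulus cells summed to 84.1 to 88.1 CPM in growing sko and 22.7 to 25.9 CPM in growing control oocytes, and those of leukocytes to 1.89 to 3.66 CPM in growing sko and 1.19 to 1.53 CPM in growing control oocytes. Granulosa markers also stood higher in the 3 sko libraries of the DRB experiment (111.1 to 149.8 CPM) than in its 3 c libraries (65.4 to 76.9 CPM). Of the granulosa markers tested, 4 of 6 rose and 0 fell in growing sko oocytes, where 28.5% of all genes tested rose and 25.2% fell. In the sko libraries of the DRB experiment 3 of 5 rose and 0 fell, where 19.2% of all genes tested rose and 16.8% fell. Fshr, the receptor for follicle-stimulating hormone, was 6.73 ± 0.21 higher on the log2 scale in growing sko oocytes. The granulosa markers tested there that did not pass, Hsd17b1 (-0.93 ± 0.38) and Inha (-0.65 ± 0.37), pointed lower. Amh was at 0 counts in all 6 libraries of the DRB experiment and at 0 to 6 counts in each growing library. Of the leukocyte markers, Ptprc rose and Cd68 fell in both sko comparisons, and Emr1, Cd14 and Tyrobp were at 0 counts in all growing libraries. Oocyte markers gave 2 of 9 higher and 3 lower in growing sko oocytes; in the DRB experiment 1 of 9 was higher and 6 lower, with sums of 6615 to 8569 CPM in the 3 sko libraries and 11041 to 12505 CPM in the 3 c libraries. The part of these markers in the sko comparisons was not tested.

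On the mm9 build, which the submitters' processing notes name, 8 members lie on chromosome 7. Nlrp4c (7:5996763-6056751, plus strand), Nlrp4b (7:11273142-11315517, plus), Nlrp9b (7:20593372-20658655, plus) and Nlrp4e (7:24086294-24147289, plus) stand apart from each other. Nlrp9c (7:27107492-27188719, minus), Nlrp4a (7:27220132-27261161, plus) and Nlrp9a (7:27320042-27360634, plus) are neighbours, with 31.4 kb between Nlrp9c and Nlrp4a and 58.9 kb between Nlrp4a and Nlrp9a. Nlrp14 (7:114310504-114341616, plus) lies farther along the same chromosome, and Nlrp4f (13:65278419-65307276, minus) is on chromosome 13. No member shared exon bases with another gene in the deposited exon table. Nlrp4 and Nlrp9 genes are close paralogues, and the sources used here do not say how reads that match several copies were assigned, so a change of one copy can carry reads of another.

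The start regions show how alike the members are upstream of their genes; identity between their transcripts or coding sequences was not computed. RefSeq promoter windows (GRCm38.p6) matched 8 of the 9 members, with a pair of annotated starts each for Nlrp4a and Nlrp4b. Shown are window 2 of Nlrp4a, chosen because it is the one that aligns with Nlrp4b and Nlrp4c, window 1 of Nlrp4b, and the single windows of the others. The sequences below are the 130 bases that end just before the annotated start, 5′ to 3′ on the gene's strand, with the motifs CCAAT (either strand) and CANNTG (the E-box, bound by basic helix-loop-helix factors) in capitals; CACATG in the joint run CCAATCACATG is an E-box that follows a CCAAT box directly.
Nlrp4a, chr7:26435484-26435613, plus strand: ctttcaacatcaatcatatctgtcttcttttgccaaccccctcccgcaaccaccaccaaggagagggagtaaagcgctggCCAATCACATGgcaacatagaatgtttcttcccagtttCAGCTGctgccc
Nlrp4b, chr7:10687663-10687792, plus strand: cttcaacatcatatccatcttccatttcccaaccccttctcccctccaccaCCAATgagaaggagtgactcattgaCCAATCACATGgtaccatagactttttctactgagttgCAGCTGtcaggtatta
Nlrp4c, chr7:6045031-6045160, plus strand: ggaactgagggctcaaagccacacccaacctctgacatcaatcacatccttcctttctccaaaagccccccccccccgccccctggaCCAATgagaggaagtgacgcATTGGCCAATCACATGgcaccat
Nlrp9a, chr7:26534893-26535022, plus strand: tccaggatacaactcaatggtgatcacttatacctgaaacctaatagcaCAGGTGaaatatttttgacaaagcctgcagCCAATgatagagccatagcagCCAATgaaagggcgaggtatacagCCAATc
Nlrp9c, chr7:26403701-26403830, minus strand: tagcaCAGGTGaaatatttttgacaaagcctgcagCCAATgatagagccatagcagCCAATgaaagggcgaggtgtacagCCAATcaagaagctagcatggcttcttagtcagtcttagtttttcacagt
Over the 250 bases before the start, Nlrp9c and Nlrp9a were identical at 94.35% of 177 aligned columns, with the motifs in the same order but shifted against the annotated start. With window 2 of Nlrp4a, Nlrp4b matched at 73.79% of 248 columns, and Nlrp4c at 72.81% of 228, and Nlrp4c and Nlrp4b matched at 72.29% of 231. Window 1 of Nlrp4a aligned with Nlrp4b over 19 columns and with Nlrp4c over 26 columns, and held no CCAAT. The 12-base word CCAATCACATGG stood in window 2 of Nlrp4a, in both windows of Nlrp4b and in the window of Nlrp4c, and in all in 6 of 32851 promoter windows (0.01826%), the other 2 genes being Dcxr and Oscp1. Of the 10 windows of members, 7 held a CCAAT and 9 an E-box on either strand, against 33.85% and 66.22% of all windows. The 10 windows are not independent, since those of Nlrp4b overlap and those of close paralogues align, so these counts carry no test. A run of 4 GGG spaced 1 to 7 bases apart, a pattern that can fold into a G-quadruplex, stood on either strand in 2 of the 10 windows and in 16.69% of all windows. A match is a description of these letters and not a binding site.

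Nlrp14 was the most abundant member in all 10 groups and Nlrp4f the second, as levels in CPM (counts scaled to a library total of 1000000) per kb of exon length show. In growing sko oocytes Nlrp14 stood at 4089 ± 770 CPM per kb and Nlrp4f at 558 ± 87 (SD, n = 3 libraries), and in growing control oocytes at 3289 ± 618 and 443 ± 72. Nlrp14 was the second most counted gene of all in each growing sko library, and ranked 4 to 7 in growing control libraries. In cPDS oocytes Nlrp14 stood at 2049 ± 97 CPM per kb, and in GV_C oocytes at 1657 ± 133. In Trim21 oocytes it stood at 949.9 ± 69.0, and in Trim controls at 752 ± 45. Nlrp4e and Nlrp4c came eighth and ninth in every group. Nlrp4c stood at 23.5 ± 1.6 CPM per kb in growing sko oocytes, 5.90 ± 0.48 in growing control oocytes, 12.7 ± 1.3 in cPDS oocytes, 8.78 ± 0.54 in GV_C oocytes, 5.5 ± 1.3 in Trim21 oocytes and 4.66 ± 0.25 in Trim controls (SD, n = 3 libraries each). Its level rested on 122 to 3511 counts per library. The middle of the order was close. Nlrp4f and Nlrp9c overlapped in growing control oocytes and in no other group. In growing control oocytes Nlrp9b, Nlrp9a, Nlrp4b and Nlrp4a each overlapped the next in line, as did Nlrp9c, Nlrp9a, Nlrp9b and Nlrp4b in growing sko oocytes. Nlrp9c ranked 3 in both growing groups, at 342 ± 14 CPM per kb in sko and 349 ± 32 in control oocytes, whereas Nlrp9a ranked 3 in cPDS (406 ± 30) and GV_C oocytes (276 ± 16). The stage of the DRB and Trim oocytes is not given separately, and experiments may differ in more than treatment, so levels across experiments are a description.

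**Figure D1:**
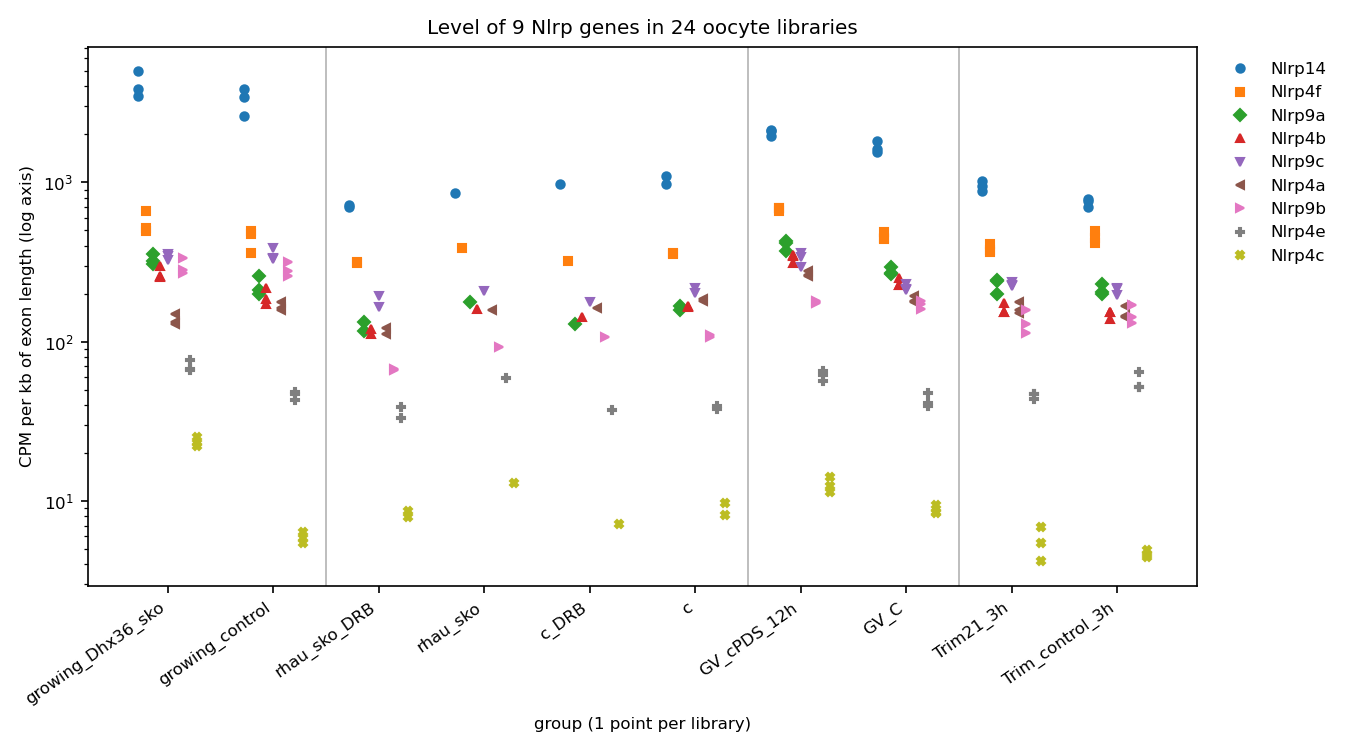
Levels of the 9 members in CPM per kb of exon length, on a log axis, in 10 groups, with 1 point per library; vertical lines separate the 4 experiments. Nlrp14 lies at the top and Nlrp4c at the bottom of every group, and Nlrp4c is highest in growing Dhx36 sko oocytes.

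Together the 9 genes took 2.07 to 2.74% of all counts in growing sko libraries and 1.62 to 2.21% in growing control libraries, ranges that overlap. They took 1.61 to 1.76% in cPDS libraries and 1.22 to 1.37% in GV_C libraries, without overlap. In the DRB experiment the share was 0.659 to 0.682% in rhau_sko_DRB, 0.844% in rhau_sko, 0.818% in c_DRB and 0.894 to 0.920% in c libraries. It was 0.866 to 0.982% in Trim21 and 0.817 to 0.872% in Trim control libraries. Nlrp14 alone supplied 61.4 to 66.0% of the family's counts in growing sko libraries and 59.0 to 63.4% in growing control libraries, and less than that in all libraries of the other experiments (29.3 to 48.2%).

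The comparison of growing sko with growing control oocytes asks what loss of Dhx36 does to the transcripts while the oocyte grows. Nlrp4c, Nlrp4e and Nlrp9a rose and Nlrp4a fell, so that close paralogues went opposite ways. These 4 calls of 9 (3 higher, 1 lower) stand against 53.7% of 14081 genes called in this comparison, 28.5% higher and 25.2% lower, so the share called, 4 of 9, was no higher than over all genes. The family's median log2 change was 0.14, beside 0.02 over all genes tested. Calls are those of edgeR's quasi-likelihood test at a Benjamini-Hochberg adjusted p below 0.05 over all genes tested, here and below, and normalised CPM are CPM scaled by TMM within the comparison.

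Nlrp4c had 91.9, 82.0 and 83.1 normalised CPM in sko oocytes, against 28.4, 24.2 and 21.4 in control oocytes. The groups did not overlap, and the lowest sko library lay well above the highest control. The log2 fold change was 1.80 ± 0.14 (SE), adjusted p = 3.14e-08, a 3.47-fold difference, and it stayed between 1.68 and 1.99 over the 9 alternative settings. Nlrp4e had 237.8, 209.9 and 205.0 normalised CPM in sko oocytes, against 162.8, 163.9 and 160.1 in control oocytes. All sko libraries lay above all controls, with a log2 fold change of 0.42 ± 0.12 (SE), adjusted p = 0.00595. Nlrp9a had 1155.8, 1068.0 and 985.9 normalised CPM in sko oocytes, against 1022.4, 776.8 and 698.9 in control oocytes. One control library lay within the sko range, and the log2 fold change of 0.36 ± 0.14 (SE), adjusted p = 0.0439 lost its call with DESeq2 (adjusted p = 0.0583) and when control 2, control 3, sko 4, sko 5 or sko 6 was left out (adjusted p = 0.063 to 0.181).

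Nlrp4a had 661.8, 583.7 and 587.1 normalised CPM in sko oocytes, against 963.1, 820.4 and 760.2 in control oocytes. Each sko library lay below each control, and the log2 fold change was -0.47 ± 0.13 (SE), adjusted p = 0.00519, called under all 9 alternative settings. Nlrp14 had 16903, 13271 and 11735 normalised CPM in sko oocytes, against 15892, 13248 and 9601.0 in control oocytes. Both groups spread widely and overlapped, and the log2 fold change of 0.11 ± 0.18 (SE), adjusted p = 0.616 did not pass. Nlrp4b (0.30 ± 0.14 (SE), adjusted p = 0.0801), Nlrp4f (0.14 ± 0.16), Nlrp9b (-0.14 ± 0.14) and Nlrp9c (-0.23 ± 0.13) did not pass either, and their groups overlapped. Nlrp4b was called higher with scaling by library size alone (0.50, adjusted p = 0.00211) and without control 1 (0.44, adjusted p = 0.00682), and Nlrp9c lower without control 3 (-0.32, adjusted p = 0.0407). Scaling by library size alone moved the median log2 change of all genes to 0.21, a shift to be read beside the 0.50 of Nlrp4b.

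**Figure D2:**
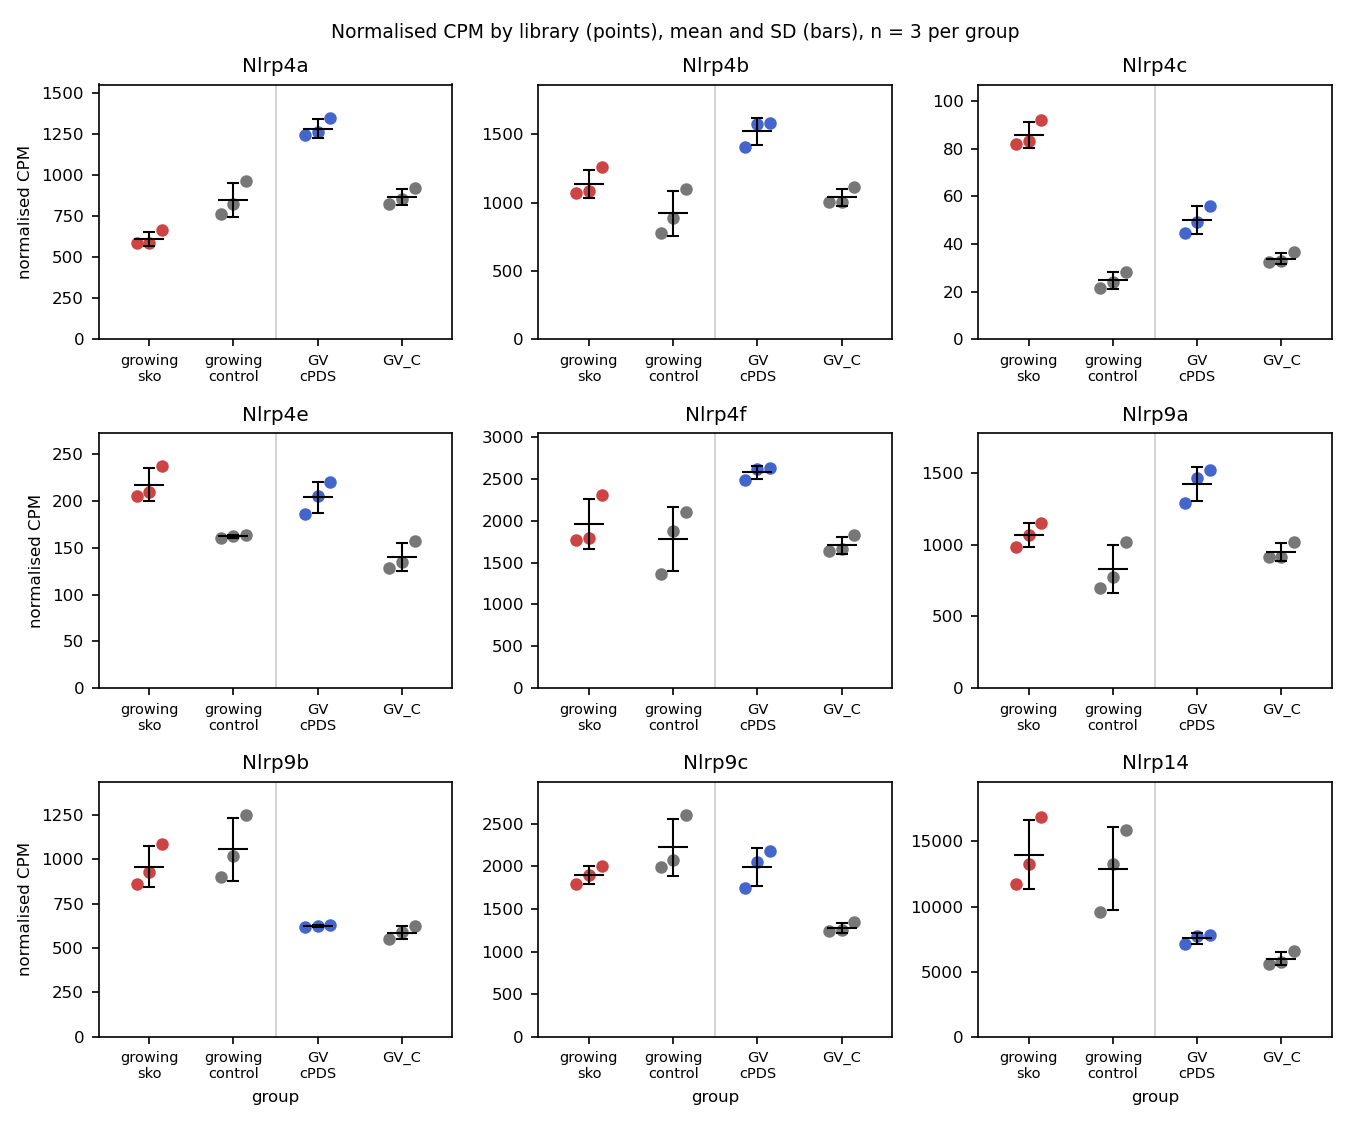
Normalised CPM of each member by library (points) with mean and SD (bars), n = 3 libraries per group, for growing Dhx36 sko and growing control oocytes and for GV cPDS and GV_C oocytes; each axis starts at 0, and the 2 comparisons were scaled separately. In growing sko oocytes Nlrp4c and Nlrp4e lie above and Nlrp4a below all controls. In cPDS oocytes all members but Nlrp9b lie above all GV_C libraries, and Nlrp9b overlaps in both comparisons. The share of all genes without such overlap was not computed.

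Ratios of 2 paralogues within a library do not depend on the scaling between libraries, though they do depend on how reads were shared among copies; the pairs shown were chosen with the changes above in view, so they carry no test. Per exon length, Nlrp4c stood at 0.170 to 0.173 of Nlrp4a in growing sko libraries and at 0.0344 to 0.0360 in growing control libraries. Nlrp4b over Nlrp4a was 1.93 to 2.02 in growing sko and 1.09 to 1.21 in growing control libraries. Nlrp9a over Nlrp9c, the pair with the near-identical start region, was 0.91 to 1.04 in growing sko and 0.60 to 0.67 in growing control libraries. Each of these 3 ratios varied little within a group and did not overlap between the groups. In the DRB experiment Nlrp4c over Nlrp4a was 0.0651 to 0.0826 in the 3 sko libraries and 0.0441 to 0.0539 in the 3 c libraries, again without overlap, and Nlrp9a over Nlrp9c was 0.683 to 0.854 in the sko and 0.727 to 0.785 in the c libraries, with overlap.

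**Figure D3:**
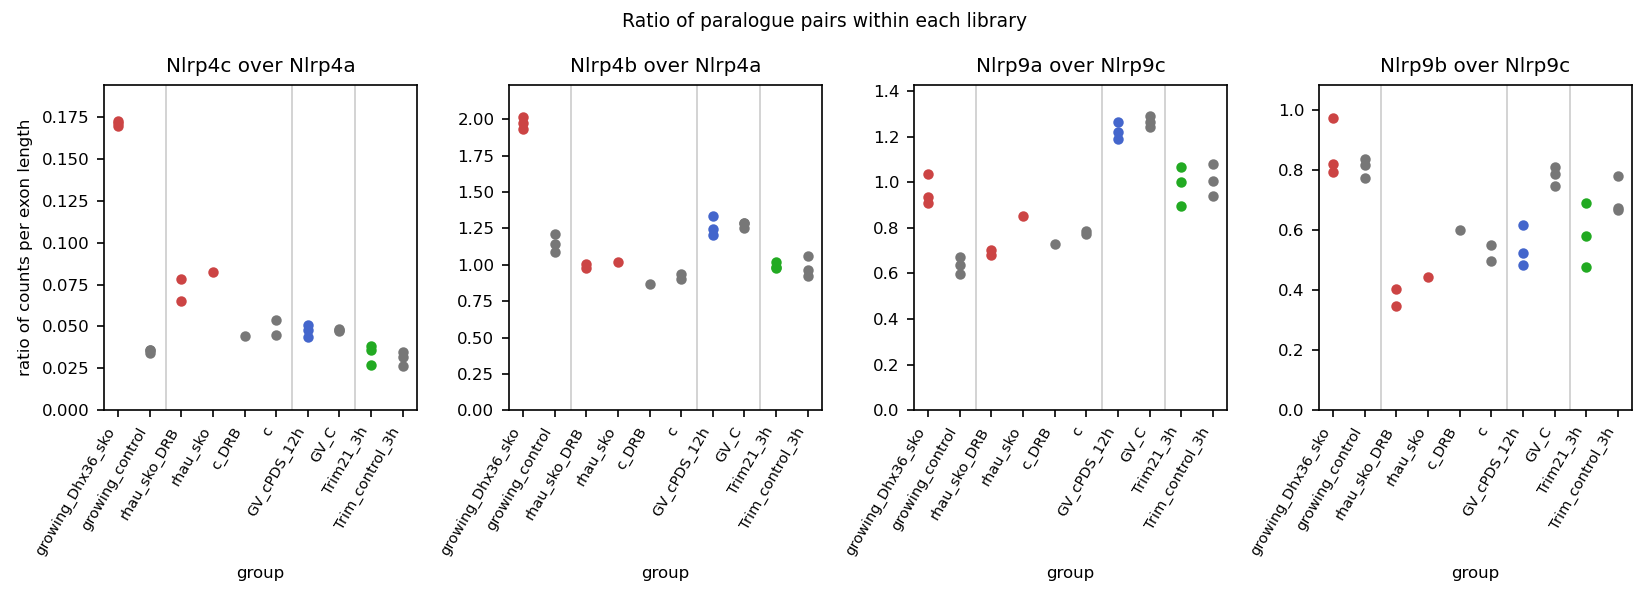
Ratios of counts per exon length for 4 pairs of paralogues in each library (points), by group; red marks sko groups, blue cPDS, green Trim21 and grey their controls, each axis starts at 0, and vertical lines separate the 4 experiments. Nlrp4c over Nlrp4a is 0.170 to 0.173 in growing sko and at most 0.0826 in any other library, and Nlrp9b over Nlrp9c is lower in cPDS than in GV_C oocytes.

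The second experiment repeated the sko comparison, with the DRB treatment as a term of the model and 6 libraries. Here Nlrp4a, Nlrp9b and Nlrp14 fell and Nlrp4c rose. These are 4 of 9 members, against 36% of 16784 genes called (19.2% higher, 16.8% lower), and the members' median log2 change was 0.03, beside 0.01 over all genes. Nlrp14 had 3118.1, 2631.1 and 2554.7 normalised CPM in the rhau_sko library and the pair of rhau_sko_DRB libraries, against 4005.8, 3602.6 and 3448.9 in the pair of c libraries and the c_DRB library. The groups did not overlap, and the log2 fold change was -0.35 ± 0.09 (SE), adjusted p = 0.0111. Nlrp9b had 323.0, 232.3 and 237.6 normalised CPM in rhau_sko, rhau_sko_DRB 7 and rhau_sko_DRB 8, against 387.7, 376.7 and 358.8 in c 1, c 2 and c_DRB 3. It too did not overlap (-0.43 ± 0.11 (SE), adjusted p = 0.0107). Nlrp4a, which fell in growing sko oocytes as well, had 750.3, 531.8 and 585.3 normalised CPM in the sko libraries, against 858.8, 883.2 and 756.0 in the c libraries (-0.33 ± 0.10 (SE), adjusted p = 0.0247), without overlap. Nlrp4c had 50.8, 34.0 and 31.2 normalised CPM in the sko libraries, against 37.9, 32.3 and 27.3 in the c libraries. These overlap, and the model, which compares within DRB and within no DRB, gave 0.40 ± 0.14 (SE), adjusted p = 0.0486. The other 5 members did not pass, at log2 fold changes of -0.15 to 0.32.

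Single libraries decided several of these calls. Without c_DRB 3, none of the 3 lower calls remained: Nlrp4a stood at -0.22 (adjusted p = 0.252), Nlrp9b at -0.25 (adjusted p = 0.204) and Nlrp14 at -0.29 (adjusted p = 0.105). Nlrp14 and Nlrp4a also missed the threshold without c 1 (adjusted p = 0.0529 and 0.0562), and Nlrp4a without c 2 (adjusted p = 0.0655). The call of Nlrp4c was lost without c 1, c 2, c_DRB 3, rhau_sko 5 or rhau_sko_DRB 7 (adjusted p = 0.0725 to 0.456), and Nlrp4e was called higher without c_DRB 3 (0.61, adjusted p = 0.0172) and without rhau_sko_DRB 8 (0.40, adjusted p = 0.0339).

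Whether the sko change itself differed between the growing and the DRB experiment was tested as an interaction over 12 libraries. Of the members, 1 of 9 passed, against 12.5% of 17437 genes. It was Nlrp4c, whose sko change was 1.43 ± 0.20 (SE) larger on the log2 scale in growing oocytes, a 2.69-fold difference (adjusted p = 0.000107). Nlrp14 differed by 0.49 ± 0.23 (adjusted p = 0.182) and Nlrp4b by 0.48 ± 0.19 (adjusted p = 0.102), neither past the threshold.

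DRB lowers transcription by RNA polymerase II, so its comparison asks which transcripts fall when synthesis is held back. All 9 members had a negative log2 change with DRB, from -0.50 ± 0.14 for Nlrp4c to -0.20 ± 0.09 for Nlrp14, with a median of -0.31 beside 0.00 over all genes. None of the 9 passed edgeR's test, in which 0.0119% of 16784 genes did, that is 2 genes. At an unadjusted p below 0.05 all 9 members and 2099 genes passed, and DESeq2, which called 237 genes higher and 239 lower, called Nlrp4b, Nlrp4c and Nlrp9a lower. Nlrp9a had 434.7, 404.9 and 464.9 normalised CPM in c_DRB 3, rhau_sko_DRB 7 and rhau_sko_DRB 8, against 551.5, 588.6 and 619.5 in c 1, c 2 and rhau_sko 5. The 3 DRB libraries lay below the 3 without DRB (-0.45 ± 0.10 (SE), adjusted p = 0.147). With the 2 libraries under 200000 counts included, the change of Nlrp9a was -0.07 (edgeR, not called); the shallow c_DRB 4 held 936.6 CPM, above every library without DRB. Across the alternatives the change of Nlrp9a ran between -0.53 and -0.07 and that of Nlrp4e between -0.72 and -0.10, and edgeR without the filter on low counts, which called 254 genes higher and 238 lower, called Nlrp4b and Nlrp9a lower. A difference of the DRB change between sko and c oocytes was called for no member by edgeR (0.033% of 18178 genes were called, and 1493 genes had an unadjusted p below 0.05, Nlrp4e being the only member among them at -0.63 ± 0.21, adjusted p = 0.515). DESeq2 called no member in it.

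The cPDS comparison sets GV oocytes after 12 h with a ligand of RNA G-quadruplexes against GV_C oocytes, for which no time is given. All members but Nlrp9b rose, 8 of 9, against 23.4% of 16115 genes called higher, 27.4% called lower and 50.8% called either way. The median log2 change of the 9 was 0.56, beside 0.01 over all genes. These calls were the same for every member under all 10 alternative settings, leaving out each library included.

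Nlrp9c rose the most, with 1750.5, 2046.4 and 2183.9 normalised CPM in cPDS oocytes, against 1349.5, 1252.8 and 1236.6 in GV_C oocytes, a log2 fold change of 0.64 ± 0.07 (SE), adjusted p = 3.27e-06. Nlrp4f, the member on chromosome 13, had 2488.9, 2628.2 and 2620.5 normalised CPM in cPDS oocytes, against 1827.5, 1665.7 and 1634.5 in GV_C oocytes, at 0.59 ± 0.06 (SE), adjusted p = 5.54e-07. Nlrp4a had 1239.6, 1257.6 and 1344.6 normalised CPM in cPDS oocytes, against 919.8, 851.2 and 824.9 in GV_C oocytes, at 0.57 ± 0.06 (SE), adjusted p = 1.7e-06. In each case the lowest cPDS library lay above the highest GV_C library. Nlrp9a had 1296.6, 1465.8 and 1523.2 normalised CPM in cPDS oocytes, against 1019.6, 913.8 and 917.2 in GV_C oocytes, again without overlap, with a log2 fold change of 0.59 ± 0.07. Nlrp4b (0.55 ± 0.07), Nlrp4c (0.56 ± 0.10) and Nlrp4e (0.54 ± 0.09) had log2 fold changes of similar size, although their levels differed widely.

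Nlrp14 had 7086.5, 7829.8 and 7757.9 normalised CPM in cPDS oocytes, against 6548.5, 5611.4 and 5762.4 in GV_C oocytes. Its log2 fold change, the smallest of the 8 called, was 0.34 ± 0.06 (SE), adjusted p = 0.000326, a 1.27-fold difference, and again without overlap. Nlrp9b, the rotavirus sensor of mouse intestine, had 632.2, 626.9 and 618.8 normalised CPM in cPDS oocytes, against 623.6, 549.7 and 588.0 in GV_C oocytes. Its groups overlapped, and its log2 fold change was 0.09 ± 0.06 (SE), adjusted p = 0.235. Within libraries Nlrp9b over Nlrp9c was 0.483 to 0.616 in cPDS and 0.748 to 0.811 in GV_C oocytes, and Nlrp4f over Nlrp14 was 0.326 to 0.342 in cPDS and 0.271 to 0.289 in GV_C oocytes, both without overlap. These pairs were chosen with the changes above in view and carry no test. Differences between members within this comparison were not tested.

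Of 9 oocyte markers 7 rose and 2 fell with cPDS, where 23.4% of all genes were called higher and 27.4% lower. Their median log2 change was 0.56, and they summed to 23377 to 27308 CPM in cPDS and 16947 to 20288 CPM in GV_C oocytes. Dazl, a translational regulator of germ cells, rose by 1.09 ± 0.06, and Kit, the receptor for KIT ligand, by 0.80 ± 0.07, whereas Ddx4, a germ-cell RNA helicase, fell by 1.25 on the log2 scale. Granulosa markers summed to 89.4 to 102.1 CPM in cPDS and 109.8 to 113.2 CPM in GV_C oocytes. In bulk libraries, a change in the number of cells and one in RNA per cell cannot be told apart, and the part of the oocyte markers' change in the family's was not tested.

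**Figure D4:**
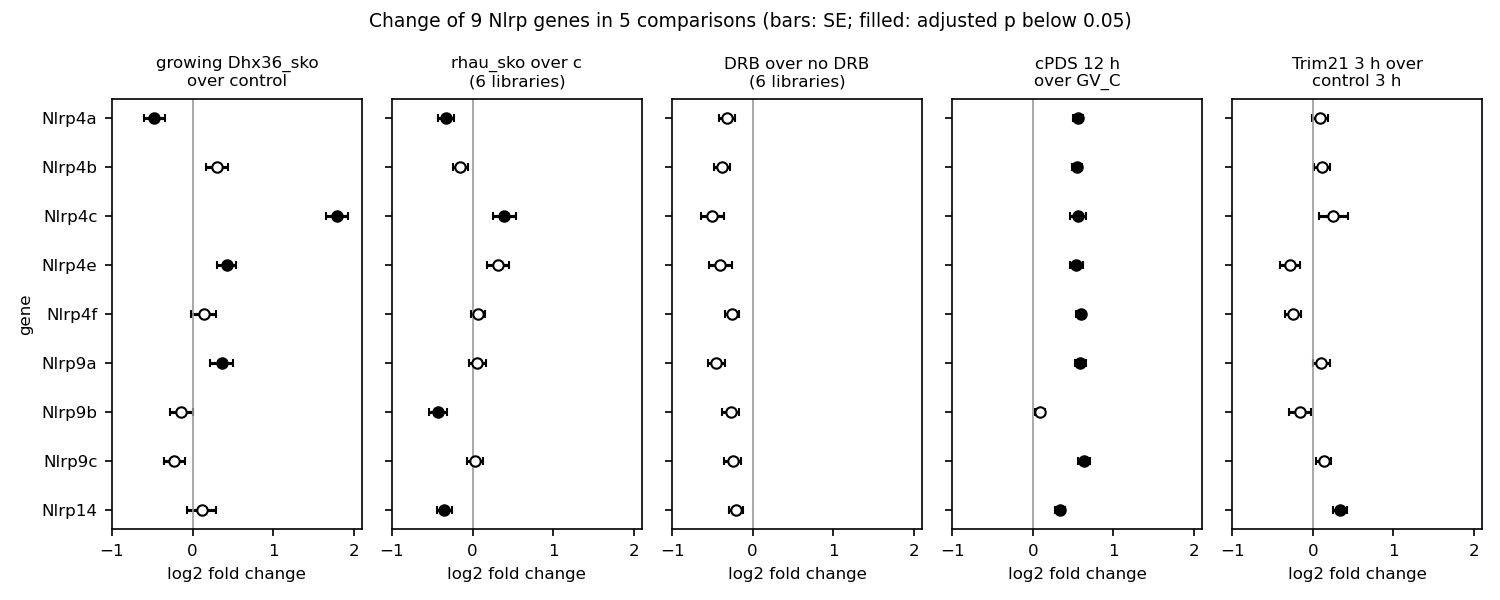
Log2 fold changes (points) with SE (bars) of the 9 members in 5 comparisons, each over its own control; filled points have an adjusted p below 0.05 (edgeR, all genes tested). With cPDS 8 members lie between 0.34 and 0.64, with DRB all 9 lie below 0 without a call, and the sko panels hold changes in both directions.

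The Trim21 comparison asks what follows within hours when DHX36 is targeted for degradation; the protein was not measured here. In it 1 member was called. Nlrp14 had 3512.0, 3219.6 and 3648.3 normalised CPM in Trim21 oocytes, against 2831.7, 2621.4 and 2769.7 in Trim control oocytes. The groups did not overlap, and the log2 fold change was 0.34 ± 0.08 (SE), adjusted p = 0.0229, a 1.26-fold difference. That is 1 of 9 members, against 11.5% of 14191 genes called either way and 6.26% called higher. The share called either way, 1 of 9, was thus no higher than over all genes. The members' median log2 change was 0.11, beside -0.01 over all genes. The call was lost when Trim control 1, Trim control 3, Trim21 1 or Trim21 3 was left out (adjusted p = 0.0668 to 0.0941, log2 fold change 0.29 to 0.36). Nlrp4e had 159.1, 154.6 and 141.7 normalised CPM in Trim21 oocytes, against 169.1, 217.2 and 169.5 in Trim control oocytes, lower in each Trim21 library but not called (-0.29 ± 0.12 (SE), adjusted p = 0.172). Nlrp4f likewise had 1439.2, 1362.3 and 1499.7 normalised CPM in Trim21 oocytes, against 1646.4, 1913.5 and 1550.0 in Trim control oocytes, at -0.25 ± 0.10 (SE), adjusted p = 0.138. Nlrp4f over Nlrp14 per exon length was 0.399 to 0.411 in Trim21 and 0.544 to 0.710 in Trim control libraries, without overlap. This ratio too was chosen with the changes in view and carries no test. Nlrp4c, the member that differed most in growing sko oocytes, stood at 21.8, 16.3 and 26.2 in Trim21 and 17.7, 17.7 and 19.0 in Trim control oocytes, with overlap. Granulosa markers summed to 68.2 to 75.5 CPM in Trim21 and 47.1 to 47.9 CPM in Trim control oocytes, and their part in this result was not tested. The Trim table was normalised separately and its cells were treated for 3 h.

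Genes whose proteins are reported to work with NLRP14 and NLRP4F were compared next. Counts for this list and those that follow stand beside the share of all genes called either way. That share was 53.7% in growing sko, 36% in the sko libraries of the DRB experiment, 50.8% with cPDS and 11.5% in Trim21 oocytes. Slc8b1 (listed as Slc24a6), the gene of the mitochondrial calcium exchanger, had at most 4 counts in any library used and was not tested. Of the 7 tested, 1 rose and 4 fell in growing sko oocytes, and 0 rose and 3 fell in the sko libraries of the DRB experiment. Ooep and Tle6, subunits of the subcortical maternal complex, fell by 0.94 and by 1.07 on the log2 scale in growing sko oocytes, and Khdc3, another subunit that the table lists as 2410004A20Rik, fell by 1.07. With cPDS 4 rose and 3 fell, among them Zbed3 (0.72 ± 0.06) and Padi6, which is needed for the cytoplasmic lattices and fell by 1.25. In Trim21 oocytes 1 of 7 fell, Khdc3 (2410004A20Rik), by 0.53.

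Of the other genes named Nlrp, 1 of 2 tested rose in growing sko oocytes. It was Nlrp5 (Mater), a core subunit of the subcortical maternal complex, by 0.91 ± 0.18. Nlrp5 had 2066 to 3034 normalised CPM in sko and 958 to 1625 in control oocytes. It is also among the partners above, so its calls are counted in both lists. With cPDS 0 of 5 rose and 2 fell, where 8 of the 9 members rose. Nlrp2 had 446 to 463 normalised CPM in cPDS and 620 to 785 in GV_C oocytes (a log2 fold change of -0.60 ± 0.08). Nlrp5 had 1349 to 1447 in cPDS and 1556 to 2014 in GV_C oocytes (-0.36 ± 0.08). The others, Nlrp6 (0.96 ± 0.59), Nlrp10 (0.46 ± 0.52) and Nlrp12 (-0.44 ± 0.49), had only 5 to 60 counts per library and did not pass. The contrast with the members therefore rests on Nlrp2 and Nlrp5. In the sko libraries of the DRB experiment 1 of 3 fell, Nlrp2 (-0.42 ± 0.11), and in Trim21 oocytes neither of the 2 tested passed.

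Genes of the inflammasome, the complex that some NLRP proteins nucleate, moved in both directions in 3 of the 4 comparisons. In growing sko oocytes 3 of 8 rose and 3 fell, among them Nlrc4, which fell by 1.32, and Naip1, which rose by 0.86 ± 0.13. In the sko libraries of the DRB experiment 6 of 13 rose and 1 fell, with the ATP receptor P2rx7 at 3.44 ± 0.54 and caspase-1 (Casp1) at 2.17 ± 0.39. Both changes rest on low counts: P2rx7 had 40 to 79 per sko library and 7 to 9 per c library. Casp1 had 68 to 110 per sko library and 26 to 29 per c library. Of the genes not tested there, Il1b and Mefv had at most 4 counts per library and Pycard at most 45. With cPDS 3 of 6 rose and 0 fell (Nek7, 0.44 ± 0.10), and in Trim21 oocytes 3 of 7 rose and 1 fell (Nlrc4, 0.96 ± 0.16). Transcription factors of the oocyte gave 4 of 9 higher and 2 lower in growing sko, 1 of 9 higher and 3 lower in the sko libraries of the DRB experiment, 5 of 8 higher with cPDS and 0 of 8 in Trim21 oocytes. Sohlh2, a basic helix-loop-helix factor of early oocytes, rose by 1.93 ± 0.16 in growing sko oocytes. Tbpl2, the TBP-like factor of oocytes, rose there by 1.39 ± 0.15, whereas Foxo3 was lower (-1.15 ± 0.15). With cPDS the homeobox gene Lhx8 rose by 0.43 ± 0.07, Taf4b, a TFIID subunit of germ cells, by 0.51 ± 0.11 and Sohlh2 by 0.44 ± 0.12.

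The members were also compared with 5321 abundant genes for likeness of pattern, by Pearson's r of log2 normalised CPM over the 18 libraries of the first table, each taken as its deviation from the mean of its experiment. The libraries share depth and condition, so r describes them and has no p. Nlrp9a and Nlrp4b were alike (r = 0.96), Nlrp4b being the most alike of all genes to Nlrp9a. Nlrp4a came closest to Pias1 (0.98) and Zfp655 (0.97), Nlrp9c to Ccnb1 (0.96) and Ube2w (0.96), and Nlrp9b to Serpini1 (0.96) and Dhx40 (0.95). Nlrp14 came closest to Trim75 (0.94) and Idh3a (0.93), Nlrp4f to Scel (0.93) and Trim13 (0.92), and Nlrp4e to Zfp708 (0.92) and Nfyc (0.91). Nlrp4b was also close to Nedd1 (0.97), and Nlrp9a to Tmem117 (0.94). Nlrp4c stood apart from its own family: its closest genes were Morc3 and Serpinc1 (0.96 each), its closest family member was Nlrp4e at 0.67, and its r with Nlrp4a was -0.25.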

How the data were processed

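Polyadenylated RNA of mouse oocytes was sequenced, and the values analysed are raw read counts per gene as the authors deposited them, in a table of the growing, DRB and GV libraries and a separate Trim table. Counting with featureCounts 2.0.1 and alignment with HISAT2 2.1.0 or STAR 2.5.2b are listed in the submitters' processing notes, without settings; nothing says whether strand was used or how multi-mapped reads were treated. Another deposited file held the same counts again in all 23 columns set side by side. Of 26 RNA libraries, 24 were used; c_DRB 4 and rhau_sko 6, under 200000 counts, were left out. The rG4, LACE and CUT&Tag assays were not analysed here. Genes were filtered with filterByExpr (minimum count 10), scaled by TMM and tested with edgeR 4.0.16 (quasi-likelihood, limma 3.58.1, R 4.3.3), with Benjamini-Hochberg adjustment over all genes tested and a threshold of 0.05. The sko and DRB terms of the second experiment came from 1 fit of 6 libraries. DESeq2 1.42.0, other scaling, no filter, all 8 libraries, a replicate block and leaving out each library were the alternatives. Promoter windows came from RefSeq and were aligned with Biopython 1.88. The edgeR fits were tested on simulated counts with known changes, which does not test how reads were counted. Of 20 replicate pairs the closest differed by a chi-square of 7.25 per gene, so none was taken as a repeat deposit. The number of counts limits precision, and intervals cover counting error only. Members, gene lists (inflammasome partners, partners of NLRP14 and NLRP4F, oocyte transcription factors, other Nlrp genes, cell type markers) and tests were chosen with earlier results of these data known. Named genes are all 9 members, the 2 most alike genes of each, and up to 3 called genes with the smallest p per list and comparison. Amh, Emr1, Cd14, Tyrobp, Pycard, Il1b, Mefv and Slc8b1 are named for low counts or 0 counts. Inha, Hsd17b1, Nlrp6, Nlrp10 and Nlrp12 are named as genes tested and not called. Both sets were named after their values were seen.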

Additional observations from a re-analysis of the deposited data

Results flagged for a closer look

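The sko change of Nlrp4c differed between the experiments, by 1.43 on the log2 scale in the interaction test (edgeR, adjusted p = 0.000107): it was 1.80 ± 0.14 in growing oocytes, higher in 3 of 3 sko libraries, and 0.40 ± 0.14 in the DRB experiment. The titles do not give the stage of the oocytes in the DRB experiment, so a difference in stage cannot be told apart from one between the experiments.

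One library left out for its depth held a level above its comparison libraries. In c_DRB 4, Nlrp9a had 121 counts, that is 936.6 CPM (Wilson 95% interval 784 to 1119 CPM, counting error only), against 447.8 CPM in c_DRB 3 of its own group and 549 and 584 CPM in the c libraries. With both shallow libraries included, the log2 DRB change of Nlrp9a was -0.07, against -0.45 without them. The other 8 members of that library did not exceed them by more than the counting interval.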

How the results depend on the processing

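No result reversed. The 8 higher calls with cPDS were the same under every alternative. For the counts of called members, rhau_sko against c gave 0 higher with library-size scaling, 0 higher without the filter on low counts, and 0 higher and 1 lower with all 8 libraries. DRB against no DRB gave 3 lower with DESeq2 and 2 lower without the filter. The difference of the sko change gave 4 higher with library-size scaling and 3 without the filter. Leaving out 1 library at a time gave 2 to 4 higher and 1 to 2 lower in growing sko, 0 to 2 higher and 0 to 3 lower in the sko libraries of the DRB experiment, 0 to 1 higher in Trim21, and 1 to 2 higher for the difference of the sko change. The cause of these changes was not tested.

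Over all genes, the DRB calls (1 higher, 1 lower) became 237 and 239 with DESeq2 and 254 and 238 without the filter. Calls of the DRB difference (2 higher, 4 lower) became 45 and 13 with DESeq2, 218 and 54 without the filter and 0 and 0 with all 8 libraries. The sko calls of the DRB experiment (3220 higher, 2823 lower) became 1822 lower with all 8 libraries, and 1990 to 3130 higher and 1581 to 2936 lower with 1 library left out. For the difference of the sko change (1330 higher, 858 lower), lower calls became 1665 with DESeq2 and 402 with library-size scaling, and leaving out 1 library gave 783 to 1419 higher and 377 to 1387 lower. Leaving out 1 library gave 513 to 1005 higher and 415 to 931 lower calls in Trim21 (888 and 742 with all), 0 to 3 higher and 1 to 6 lower with DRB, and 19 to 164 higher and 10 to 53 lower for the DRB difference, which could not be fitted without c_DRB 3 or rhau_sko 5. Nlrp4c, at 122 counts in its lowest library, is the member whose precision depth limits most.

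Replicate numbers were shared between the GV groups and between the Trim groups. The deviations of same-numbered libraries had r of -0.059, -0.033 and -0.037 (GV) and 0.075, 0.091 and -0.049 (Trim). The labels do not say whether a number marks a shared animal or day, and these values do not settle it. With a replicate block, 8 members stayed higher with cPDS and 1 in Trim21, with Nlrp14 at 0.33 (adjusted p = 0.00696) in Trim21; it changed no member's call. In the growing and DRB experiments no paired analysis was possible because their groups share no numbers.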
